A study of Mus musculus with 14 samples.

Results

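H3K4me1-only regions are stretches of chromatin listed as enriched for monomethylated lysine 4 of histone H3 (H3K4me1) in untreated mouse embryonic stem cells. None of them was listed there for the other methylated forms of this lysine or the methyltransferase Mll1, which does not show their absence. They were chosen from the deposited list of enriched regions (peaks) of the untreated H3K4me1 library. A peak was a member when it was narrower than 10 kb, held 100 or more tags (aligned reads left after removal of duplicates) and overlapped no untreated peak of dimethylated H3K4 (H3K4me2), trimethylated H3K4 (H3K4me3) or Mll1 by 1 bp or more. The rule gave 9208 members among 119739 untreated H3K4me1 peaks, or 7.69% of them. Of the 64121 peaks within both limits, 54838 overlapped H3K4me2, and 75 of the others overlapped H3K4me3 or Mll1 alone.

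The cells were embryonic stem cells derived from blastocysts of strain C57BL/6J with the genotype Mll1fl/fl; Cre-ER TM, in which 4-hydroxytamoxifen (4-OHT) activates a Cre recombinase that deletes the floxed Mll1 alleles. Treated cells received 100 µM MM-401, an inhibitor of MLL1, or 5 µM 4-OHT over 9 days and 3 passages, and were compared with untreated cells. All 3 conditions had the same floxed genotype and Cre, and all grew on Matrigel in LIF medium containing 15% KSR and 5% serum. After 10 minutes of fixation in 1% PFA, the 3 marks were precipitated in every condition and Mll1 in untreated cells only. How many clones the cells came from is not given in the sources used here, and Mll1 deletion or inhibition itself was not measured in these lists.

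H3K4me1 is laid down mainly by the enzymes Kmt2c and Kmt2d and is a mark of enhancers, active and poised, and of the flanks of gene starts. H3K4me2 is found at enhancers and around gene starts, and H3K4me3 at active and CpG-rich gene starts. Mll1, encoded by Kmt2a, adds methyl groups to H3K4 in a complex with Wdr5, Rbbp5, Ash2l and Dpy30, and MM-401 blocks the contact between Mll1 and Wdr5.

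A few members lay over annotated gene starts, and the sequences of 3 such starts are printed as examples. Each sequence is 300 bases, with 250 before and 50 after the start, from RefSeq on GRCm38.p6, and CpG dinucleotides are in capitals. Ccr6, a chemokine receptor of lymphocytes, is shown because its member held the most tags of those over a protein-coding start (chr17:8242276-8242575, plus strand). Kiss1, which encodes the kisspeptin hormone, is shown because the member over its start acquired H3K4me2 after 4-OHT (chr1:133326962-133327261, plus strand). Cer1, a secreted antagonist of Nodal and BMP in the early embryo, is shown for another reason (chr4:82885102-82885401, minus strand). The member over its start kept H3K4me1 without H3K4me2 in every condition. Sox2, a pluripotency factor whose start carried H3K4me3, is shown for contrast (chr3:34649745-34650044, plus strand).
Ccr6: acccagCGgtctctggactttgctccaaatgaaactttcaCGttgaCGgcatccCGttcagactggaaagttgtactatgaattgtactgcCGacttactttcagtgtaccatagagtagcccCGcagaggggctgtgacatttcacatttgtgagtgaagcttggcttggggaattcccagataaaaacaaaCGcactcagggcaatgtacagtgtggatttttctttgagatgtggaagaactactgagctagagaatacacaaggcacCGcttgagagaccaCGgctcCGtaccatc
Kiss1: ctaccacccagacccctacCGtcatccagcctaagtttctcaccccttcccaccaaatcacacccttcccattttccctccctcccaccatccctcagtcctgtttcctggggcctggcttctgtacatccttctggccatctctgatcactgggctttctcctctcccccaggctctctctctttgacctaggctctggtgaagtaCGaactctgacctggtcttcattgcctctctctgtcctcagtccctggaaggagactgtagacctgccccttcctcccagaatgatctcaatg
Cer1: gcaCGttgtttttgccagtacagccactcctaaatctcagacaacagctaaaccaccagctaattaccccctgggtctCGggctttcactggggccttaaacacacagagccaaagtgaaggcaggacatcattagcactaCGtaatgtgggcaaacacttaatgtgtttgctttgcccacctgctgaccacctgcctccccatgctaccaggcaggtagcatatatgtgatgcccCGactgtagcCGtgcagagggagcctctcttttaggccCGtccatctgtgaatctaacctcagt
Sox2: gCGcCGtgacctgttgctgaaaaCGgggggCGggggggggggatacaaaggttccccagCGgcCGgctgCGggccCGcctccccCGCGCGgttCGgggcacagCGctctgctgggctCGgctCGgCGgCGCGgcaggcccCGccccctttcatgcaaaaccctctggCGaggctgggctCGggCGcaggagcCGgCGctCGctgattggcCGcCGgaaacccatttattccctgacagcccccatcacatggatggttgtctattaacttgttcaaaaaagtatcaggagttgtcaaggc
The 3 member starts held 10, 2 and 6 CpG dinucleotides, in the order printed, and the Sox2 start held 27. Their ratios of observed to expected CpG were 0.59 for Ccr6, 0.11 for Kiss1 and 0.31 for Cer1. Over all 211 member starts the medians were 3 CpG and a ratio of 0.19, so Ccr6 and Cer1 were richer in CpG than most.

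Tags are given per M filtered tags (M is 1000000 tags) where libraries are compared. A treated value counts all tags of the treated peaks that overlap the member, and these can be wider or narrower than the member. The Ccr6 region held 8.73 H3K4me1 tags per M after MM-401 and 14.7 after 4-OHT, against 16.6 in untreated cells (614 tags). Its listed peak was 4702 bp wide after MM-401 and 8165 bp after 4-OHT, against 8270 bp in untreated cells. Per kb of peak the region held 1.86 after MM-401 and 1.80 after 4-OHT, against 2.01 in untreated cells. An H3K4me2 peak of 125 tags lay in it after 4-OHT, and none was listed after MM-401. Kiss1 had 4.32 H3K4me1 tags per M after MM-401 and 4.21 after 4-OHT, against 4.18 in untreated cells, and its H3K4me2 peak after 4-OHT held 119 tags. The Cer1 values were 2.52 after MM-401 and 2.85 after 4-OHT, against 2.98 in untreated cells.

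Each group was 1 library, so no test between conditions was possible. Intervals are 95% and exact (Clopper-Pearson for shares, Poisson for tags) and cover counting error only. Filtered tags ranged from 12.9 to 22.2 M in the MM-401 mark libraries and from 26.4 to 61.8 M in the 4-OHT mark libraries, against 25.3 to 40.1 M in untreated cells. For H3K4me1 the MM-401 library held 60.3% and the 4-OHT library 167% of the untreated depth. For H3K4me2 these shares were 49.5% and 121%. Treatment and depth, and for MM-401 also a separate processing folder, cannot be told apart. In the 4-OHT H3K4me1 list some long stretches held no peak although H3K4me2 peaks were listed there, which bears on the counts of loss given later. H3K4me3 peaks were listed at an end of 7 of 8 embryonic stem cell markers in all 3 conditions, with Esrrb listed at none. In untreated cells they held 27.3 to 252 tags per M. Peaks were also listed at an end of 2 of 3 primitive endoderm, 2 of 3 trophectoderm and 3 of 4 fibroblast markers, with none at Gata4, Elf5 or Dcn. The 3 fibroblast genes held 10.3 to 18.1 untreated tags per M. The primitive endoderm genes with a peak, Gata6 and Sox17, held 78.9 and 66.1, within the range of the stem cell markers. The trophectoderm genes with a peak, Cdx2 and Krt8, held 46.1 and 16.9. The part of other cells in the results was not tested.

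Members were weaker H3K4me1 peaks than those that also carried H3K4me2, though the rule set their minimum. The median over all untreated H3K4me1 peaks, to which no such minimum applies, was 111 tags. Untreated tags ran from 100 to 617 with a median of 130.5, and widths from 1134 to 9076 bp with a median of 2113 bp. The threshold cut through a dense part of the list: 1022 members had 100 to 104 tags, and 1063 peaks with 95 to 99 tags that met the other criteria were left out. As the nearest comparison, 20585 peaks within the same limits overlapped untreated H3K4me2 but neither H3K4me3 nor Mll1, and are called H3K4me1 and H3K4me2 regions here. Members held a median of 1.71 tags per M per kb, against 2.10 in H3K4me1 and H3K4me2 regions. Their median fold enrichment as given by the authors was 6.84, against 8.91.

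The members were spread over gene bodies and the space between genes in much the same proportions as H3K4me1 and H3K4me2 regions. Of the members, 54.2% lay in the body of a protein-coding gene, 39.8% between genes and 6.03% within 1 kb of a gene end. In H3K4me1 and H3K4me2 regions these shares were 51.6%, 41.6% and 6.81%. Over all untreated H3K4me1 peaks 21.6% lay within 1 kb of a gene end, so both classes were poor in gene ends. Both were chosen without untreated H3K4me3, a mark of gene starts, so this contrast is a description that the rule helped to set. The nearest untreated H3K4me2 peak lay at a median of 3.96 kb from a member, and 14.7% of members had one within 1 kb. The nearest Mll1 peak lay at a median of 131 kb, and 29 members had one within 1 kb. The Mll1 list held 4004 peaks with 0.285% of that library's tags, so absence of an Mll1 peak says little about Mll1 at a member.

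After MM-401, 28.6% of members (2632, interval 27.7% to 29.5%) overlapped no H3K4me1 peak, and after 4-OHT 3.06% (282, interval 2.72% to 3.44%) overlapped none. The same counts over all untreated H3K4me1 peaks were 34.4% after MM-401 and 9.35% after 4-OHT, many of them peaks under 100 tags, and over all untreated H3K4me1 peaks without H3K4me2 they were 63.5% and 21.8%. In H3K4me1 and H3K4me2 regions 9.48% had no H3K4me1 peak after MM-401 and 0.918% had none after 4-OHT. The share in members was thus above that of H3K4me1 and H3K4me2 regions under each treatment, with intervals apart. Counting only treated peaks with a score of 100 or more, the shares of members without H3K4me1 were 56.3% after MM-401 and 7.66% after 4-OHT. Both treatments were set against the same untreated lists. Every member has an untreated H3K4me1 peak by the rule, so only loss could appear in these counts.

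H3K4me2 was acquired mainly after 4-OHT. After MM-401, 7.87% of members (725) overlapped an H3K4me2 peak, and after 4-OHT 53.5% (4927, interval 52.5% to 54.5%) did. Among all untreated H3K4me1 peaks H3K4me2 was present at 49.5% after MM-401 and 71.1% after 4-OHT, but most of those carried H3K4me2 before treatment, and among those that did not, weak peaks included, the shares were 2.99% and 25.6%. With treated peaks of score 100 or more alone, 1.37% of members had H3K4me2 after MM-401 and 31.9% after 4-OHT, and with the 4-OHT H3K4me2 list shortened to the length of the untreated one 42.7% of members had it. H3K4me3 was present at 3 members after MM-401 (0.0326%) and at 46 after 4-OHT (0.500%), against 28.9% and 41.6% of all untreated H3K4me1 peaks and 0.0481% and 0.348% of those without H3K4me2. In H3K4me1 and H3K4me2 regions, which also lacked H3K4me3 before treatment, 0.496% had it after MM-401 and 15.7% after 4-OHT. In 4-OHT cells H3K4me3 peaks therefore appeared at a smaller share of members than of regions that already had H3K4me2.

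**Figure D1:**
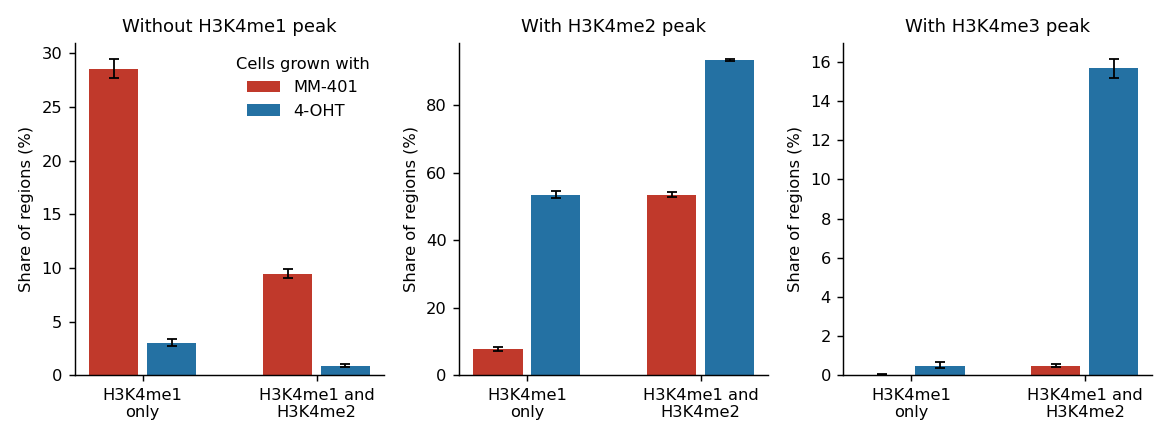
Shares of regions (y axis, %) without a treated H3K4me1 peak (left), with a treated H3K4me2 peak (middle) and with a treated H3K4me3 peak (right) in cells grown with MM-401 or 4-OHT, for the 9208 H3K4me1-only regions and the 20585 H3K4me1 and H3K4me2 regions. Bars are shares and lines are exact 95% intervals for counting error; members without H3K4me1 reach 28.6% after MM-401 and members with H3K4me2 reach 53.5% after 4-OHT.

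A member has no listed untreated H3K4me2 peak by the rule, so the lists can only show acquisition there. The same rule was therefore also applied in the other direction, to each treated H3K4me1 list with the tag minimum scaled to its depth. Only that minimum was scaled. The H3K4me2 lists were used at their own depth, 49.5% of the untreated depth for MM-401 and 121% for 4-OHT. Of the H3K4me1 and H3K4me2 regions, 53.5% had a listed H3K4me2 peak after MM-401 and 93.4% after 4-OHT. Treatment and depth therefore cannot be told apart in the backward counts either. No Mll1 list of treated cells was used. Regions with H3K4me1 alone after MM-401 (14313 with at least 61 tags) had an untreated H3K4me2 peak in 53.2% of cases. Regions with H3K4me1 alone after 4-OHT (5335 with at least 168 tags) had one in 13.0%. For 4-OHT, acquisition by untreated H3K4me1-only regions (53.5%) thus was above the same count taken backwards (13.0%). For MM-401 the backward count was the larger (53.2%, beside 7.87%). No untreated H3K4me1 peak was listed at 2.30% of the MM-401 regions, beside 28.6% of members without H3K4me1 after MM-401. For the 4-OHT regions this backward count was 15.5%, beside 3.06% of members without H3K4me1 after 4-OHT.

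Loss of H3K4me1 after MM-401 followed the strength of the member. Of the 3977 members with 100 to 124 tags 39.0% had no peak after MM-401, of those with 150 to 199 tags 18.9%, and of the 202 with 300 or more tags 1.98%. After 4-OHT the share was 4.00% at 100 to 124 tags, 2.00% at 150 to 199 tags and 5.45% at 300 or more. Within each of the 5 tag classes members lacked H3K4me1 more often than H3K4me1 and H3K4me2 regions under each treatment, with intervals apart. In the class of 100 to 124 tags, for example, H3K4me1 and H3K4me2 regions lacked it in 28.6% of cases after MM-401 and 1.04% after 4-OHT.

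Acquisition of H3K4me2 was also more frequent at higher untreated tags. After 4-OHT it took in 42.5% of members with 100 to 124 tags, 61.4% of those with 150 to 199 tags and 90.1% of those with 300 or more. After MM-401 the shares were 5.33%, 9.70% and 20.3% in these classes. Distance from existing H3K4me2 made less difference after 4-OHT: H3K4me2 was acquired by 53.3% of members under 1 kb from an untreated H3K4me2 peak, 52.4% of those at 5 to 20 kb and 65.0% of the 80 members at 100 kb or more. After MM-401 the shares at these distances were 7.77%, 7.14% and 23.8%.

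**Figure D2:**
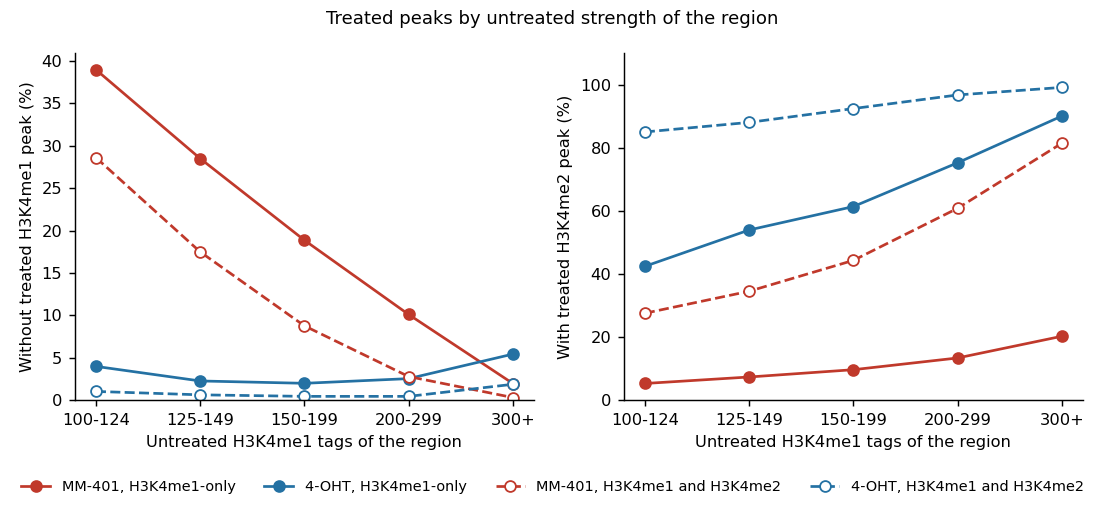
Share of regions without a treated H3K4me1 peak (left, y axis in %) and with a treated H3K4me2 peak (right, y axis in %) by the untreated H3K4me1 tags of the region (x axis), after MM-401 (red) and 4-OHT (blue), in H3K4me1-only regions (filled) and H3K4me1 and H3K4me2 regions (open). In members the MM-401 line on the left goes down with tags, and the 4-OHT line on the right goes up to 90.1%.

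The H3K4me2 acquired after 4-OHT was in separate, small peaks. Of the 4927 members, 4781 (97.0%) overlapped only H3K4me2 peaks that touched no untreated H3K4me2 peak, and 146 were reached by a peak that did. The 5087 new peaks had a median of 77 tags and a median width of 1266 bp, against 142 tags and 1536 bp over the whole 4-OHT H3K4me2 list. They made up 28.3% of the 18004 H3K4me2 peaks new to that list. At the untreated depth 84.8% of them would hold at least the 41 tags of the 5th percentile of the untreated H3K4me2 list. After MM-401 the 712 new peaks had a median of 44 tags. At the MM-401 depth 2340 members (25.4%) would have a new 4-OHT H3K4me2 peak with at least the 33 tags of the 5th percentile of the MM-401 list, beside the 725 members with H3K4me2 after MM-401.

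Levels of H3K4me2 in tags per M per kb were lower in members than in H3K4me1 and H3K4me2 regions. In members with a peak the median was 1.58 after MM-401 and 1.26 after 4-OHT. In H3K4me1 and H3K4me2 regions it was 1.91 after MM-401 and 1.68 after 4-OHT, against 1.55 in untreated cells. H3K4me1 stood higher where H3K4me2 was acquired. Members with H3K4me2 after 4-OHT had a median log2 ratio of H3K4me1 tags per kb (4-OHT over untreated) of -0.06, against -0.29 in those without it. For MM-401 the medians were 0.26 with and 0.09 without H3K4me2.

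In members that kept a peak, the median H3K4me1 level after treatment was near the untreated one. For 6501 members under treated peaks narrower than 10 kb, the median log2 ratio of tags per M per kb was 0.10 for MM-401 over untreated, and 66.2% were higher after MM-401. For 8256 members the median was -0.17 for 4-OHT over untreated, and 28.5% were higher after 4-OHT. H3K4me1 and H3K4me2 regions gave 0.07 and -0.17, so the offsets were close in both classes. Widths differed the other way, with a median log2 ratio of -0.15 for MM-401 and 0.14 for 4-OHT in members, and the total tags per M gave -0.09 and 0.01.

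Some members were taken up into wide H3K4me1 domains after 4-OHT. Members and H3K4me1 and H3K4me2 regions were narrower than 10 kb in untreated cells by the rule, so only a gain could appear. Of the members, 0.717% (66) lay in an MM-401 H3K4me1 peak of 10 kb or more and 7.20% (663) in such a 4-OHT peak. H3K4me1 and H3K4me2 regions did so in 1.15% and 6.41% of cases. The lists held 1559 such peaks after MM-401 and 3316 after 4-OHT, against 1862 in untreated cells. The MM-401 H3K4me1 library held 60.3% and the 4-OHT one 167% of the untreated depth, so treatment and depth cannot be told apart here. In the bodies of genes with untreated H3K4me3 at an end, 11.2% of 4541 members lay in a wide 4-OHT H3K4me1 peak, against 4.66% of 451 members in other gene bodies and 2.21% of 3661 between genes. H3K4me2 was acquired after 4-OHT by 58.9% (interval 57.5% to 60.4%) of the members in bodies of genes with H3K4me3 at an end, 54.1% (49.4% to 58.8%) of those in other gene bodies and 46.9% (45.2% to 48.5%) of those between genes. For MM-401 the order was different, with 6.61% (5.90% to 7.37%), 11.5% (8.73% to 14.8%) and 9.31% (8.39% to 10.3%).

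Large genes held several members. Smyd3, a lysine methyltransferase gene of 566 kb, held 13, the most of any gene, and 5 of these had no H3K4me1 peak after MM-401 while all kept one after 4-OHT. Rere, a transcriptional corepressor, held 11, and Lpp and Rbfox2 held 10 each. In Rbfox2, a regulator of splicing in stem cells, 9 of the 10 members had H3K4me2 after 4-OHT and 1 after MM-401, where all members stood at 53.5% and 7.87%. Other genes with many members had fewer, with 5 of 13 in Smyd3 and 2 of 8 in Ptprg after 4-OHT. Rbfox2 was singled out after its values were seen. In all, 3313 genes held a member and 2212 of them held exactly 1. On chromosome X, 53 of 625 peaks within the limits were members (8.48%), below the range of 12.6% to 17.7% over the autosomes. Untreated H3K4me1 peaks on X were also weaker, with a median of 64 tags, against 104 to 125 on the autosomes. Only 27.9% of them lay within the limits, against 51.4% to 57.7% on the autosomes. Whether this accounts for the lower share was not tested.

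Gene starts inside members were poor in CpG. Of 8902 members on chromosomes with annotated starts used here, 191 (2.15%) lay over a start, against 3.76% of H3K4me1 and H3K4me2 regions and 9.42% of all untreated H3K4me1 peaks. The 211 starts in members had a median ratio of observed to expected CpG of 0.19, with 1 of them at 0.6 or above. Starts in H3K4me1 and H3K4me2 regions had a median of 0.22. Starts in untreated H3K4me3 peaks had a median of 0.73, with 66.4% at 0.6 or above. The rule kept starts in untreated H3K4me3 peaks out of members, so the contrast with them is a description. Starts without any of the 3 marks had a median of 0.17, close to that of the members, and all 32817 starts had a median of 0.38. The motif counted was CG, which reads the same on both strands. Of the 191 members over a start, 51 (26.7%) had no H3K4me1 peak after MM-401 and 5 (2.62%) had none after 4-OHT, near the 28.6% and 3.06% of all members. H3K4me2 was present at 13 (6.81%) after MM-401 and at 98 (51.3%) after 4-OHT, near the 7.87% and 53.5% of all members. H3K4me3 was acquired at 0 of them after MM-401 and at 1 after 4-OHT, a member over an internal start of Atxn2, which encodes an RNA-binding protein. There the H3K4me3 peak held 45 tags, beside 458 H3K4me2 tags and an H3K4me1 peak of 5485 tags.

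**Figure D3:**
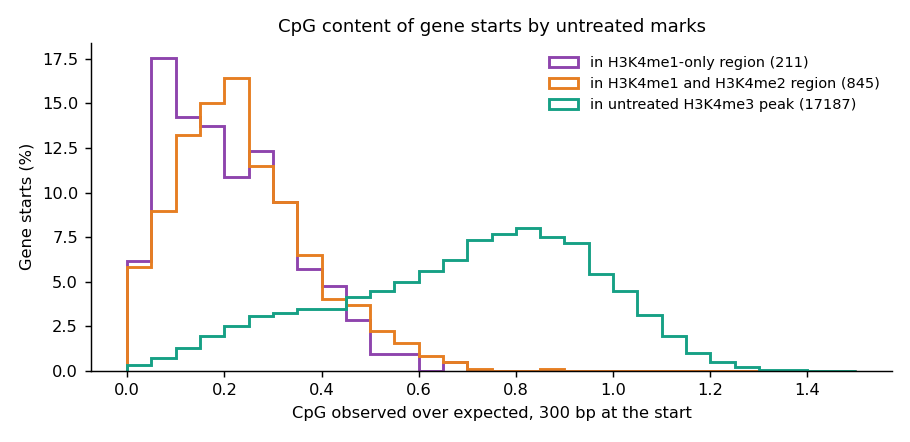
Histogram of the ratio of observed to expected CpG in the 300 bp at each annotated gene start (x axis), as a share of the starts in each class (y axis, %). Starts in the 211 member windows lie mostly under 0.5 (median 0.19), beside those in H3K4me1 and H3K4me2 regions (median 0.22), and starts in untreated H3K4me3 peaks are centred higher (median 0.73).

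The members with the most untreated tags show these patterns one by one. The first lay in Stk35, a kinase gene (chromosome 2, 129811969 to 129821044), with 13.5 H3K4me1 tags per M after MM-401 (interval 12.0 to 15.1) and no listed H3K4me1 peak after 4-OHT, against 16.7 (15.4 to 18.1) in untreated cells. It nevertheless carried a new 4-OHT H3K4me2 peak of 583 tags, and none was listed after MM-401. The H3K4me1 peak in Stk35 was 5748 bp wide after MM-401, against 9076 bp in untreated cells. Per kb of peak its level was higher, at 2.34 after MM-401 (2.08 to 2.62), against 1.84 (1.70 to 1.99) in untreated cells. The member in Hnf4a, a nuclear receptor of endoderm and liver (chromosome 2, 163512175 to 163518187), had 11.6 H3K4me1 tags per M after MM-401 and 21.9 after 4-OHT, against 15.3 in untreated cells. Per kb of peak its level was 3.02 after MM-401 and 2.41 after 4-OHT, against 2.54 in untreated cells, while its listed width was 3851 bp after MM-401 and 9088 bp after 4-OHT, against 6013 bp in untreated cells. Hnf4a acquired H3K4me2 under both treatments, with 6.36 tags per M after MM-401 and 7.37 after 4-OHT.

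Clic4, which encodes a chloride channel protein, held the new 4-OHT H3K4me2 peak with the most tags, 770 over 7992 bp, in a ranking of new peaks that was added after the values were seen. Its member (chromosome 4, 135225708 to 135232505) had 14.8 H3K4me1 tags per M in 6233 bp after MM-401 and lay in a 4-OHT H3K4me1 peak of 115 tags per M in 39431 bp, against 15.2 tags per M in 6798 bp in untreated cells. A 4-OHT H3K4me3 peak of 1.25 tags per M (interval 0.86 to 1.75) was listed there too. The wide 4-OHT H3K4me1 peak also spanned a neighbouring untreated H3K4me1 peak of 83.1 tags per M in 23965 bp, so its tags are no gain of the member. Next in that ranking was Golph3, a Golgi protein gene, with 758 H3K4me2 tags after 4-OHT and none listed after MM-401. In the MM-401 list the first was a member 81.0 kb from Chst15, a sulfotransferase gene, with 6.87 H3K4me2 tags per M after MM-401 and 2.72 after 4-OHT. Its H3K4me1 stood at 16.5 tags per M after MM-401 (14.8 to 18.2) and 11.0 after 4-OHT (10.2 to 11.8), against 9.92 (8.93 to 11.0) in untreated cells. When peaks that extend from existing H3K4me2 were counted too, the highest tags after 4-OHT were at Nufip2 (8979), beside the repressor gene Rest (8321) and in Jarid2 (7768), and after MM-401 in Sema6a (1754), all in peaks that covered much more than the member.

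**Figure D4:**
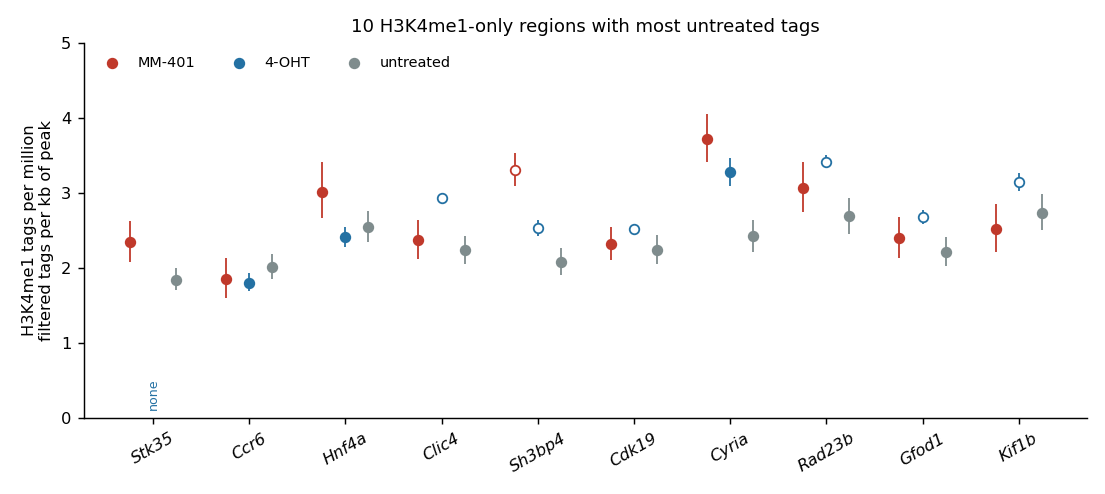
H3K4me1 level (y axis, tags per M filtered tags per kb of peak) in the 10 H3K4me1-only regions with the most untreated tags (x axis, named by the gene holding or nearest to each), after MM-401, after 4-OHT and in untreated cells. Points are values, lines exact 95% Poisson intervals, open points peaks of 10 kb or more; Stk35 has no 4-OHT peak, and Hnf4a stands at 3.02 after MM-401 and 2.41 after 4-OHT, against 2.54 in untreated cells.

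Among members without H3K4me1 after MM-401, those with the most untreated tags lay in or near Pde9a, Plekhf1, Kif13b, Bend4 and Fam20a, and after 4-OHT all 5 were listed with H3K4me1. Pde9a, a cyclic GMP phosphodiesterase gene, had no peak of any mark after MM-401 and 5.38 H3K4me1 tags per M after 4-OHT (4.81 to 5.99), against 9.68 (8.70 to 10.7) in untreated cells. The member near Cavin4, a caveolar protein gene, had no peak after MM-401 and 17.1 tags per M after 4-OHT (16.1 to 18.2), against 7.65 (6.78 to 8.59) in untreated cells. The 4-OHT peak there was 9386 bp wide, against 4070 bp untreated.

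Strong members without H3K4me1 after 4-OHT had another pattern. There were 35 with 200 or more untreated tags, and 34 of them had a 4-OHT H3K4me2 peak. All 35 lay in stretches of 20 kb or more without any 4-OHT H3K4me1 peak, of median length 59.5 kb, in which the untreated list held a median of 7 H3K4me1 peaks. Of the 99 such members without H3K4me1 after MM-401, 0 had an MM-401 H3K4me2 peak, and 42 lay in stretches of that length. Stk35, Sf3b3, Celf1, Kmt2c, Nrf1, Jmjd1c, Jarid2, Rbpms and Msi2 held the 10 with the most tags, 2 of them in Jmjd1c. Over all 282 members without 4-OHT H3K4me1, 177 lay in stretches of 20 kb or more, of which 87 had H3K4me2. Another 104 lay in shorter ones, of which 3 had it. Of the 2632 members without MM-401 H3K4me1, 1457 lay in MM-401 stretches of 20 kb or more. Of these, 6 had MM-401 H3K4me2. In the lists as a whole, 10 of 700 H3K4me2 peaks of 10 kb or more overlapped no H3K4me1 peak after MM-401 and 62 of 1528 after 4-OHT, against 11 of 745 in untreated cells. The 4-OHT share of members without H3K4me1 was 1.16% when these 177 were left out, and 2.14% when only the 87 with H3K4me2 were. All members left out lacked the peak, so the share could only fall, and no such exclusion was made for MM-401. Whether H3K4me1 was absent from these stretches in the cells was not tested, and the lists hold no signal between peaks.

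Jarid2, a subunit of the repressive complex PRC2, held such a stretch. The member on which the map is centred (chromosome 13, 44887224 to 44893156) had 12.2 H3K4me1 tags per M after MM-401 (10.8 to 13.8) and no 4-OHT H3K4me1 peak, against 10.7 (9.68 to 11.8) in untreated cells. A 4-OHT H3K4me2 peak of 356 tags lay over it. To its left the 4-OHT list had an H3K4me2 peak 47405 bp wide, where the untreated list had several separate ones. Tfcp2l1, a factor of naive pluripotency, held a member of another kind. Its H3K4me1 stood at 7.47 tags per M after MM-401, against 7.76 in untreated cells. After 4-OHT the member lay in a joined domain of 121 tags per M in 36398 bp, and a new H3K4me2 peak of 94 tags was listed. That domain also spanned a neighbouring untreated H3K4me1 peak of 107 tags per M in 25709 bp, so its tags are no gain of the member.

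**Figure D5:**
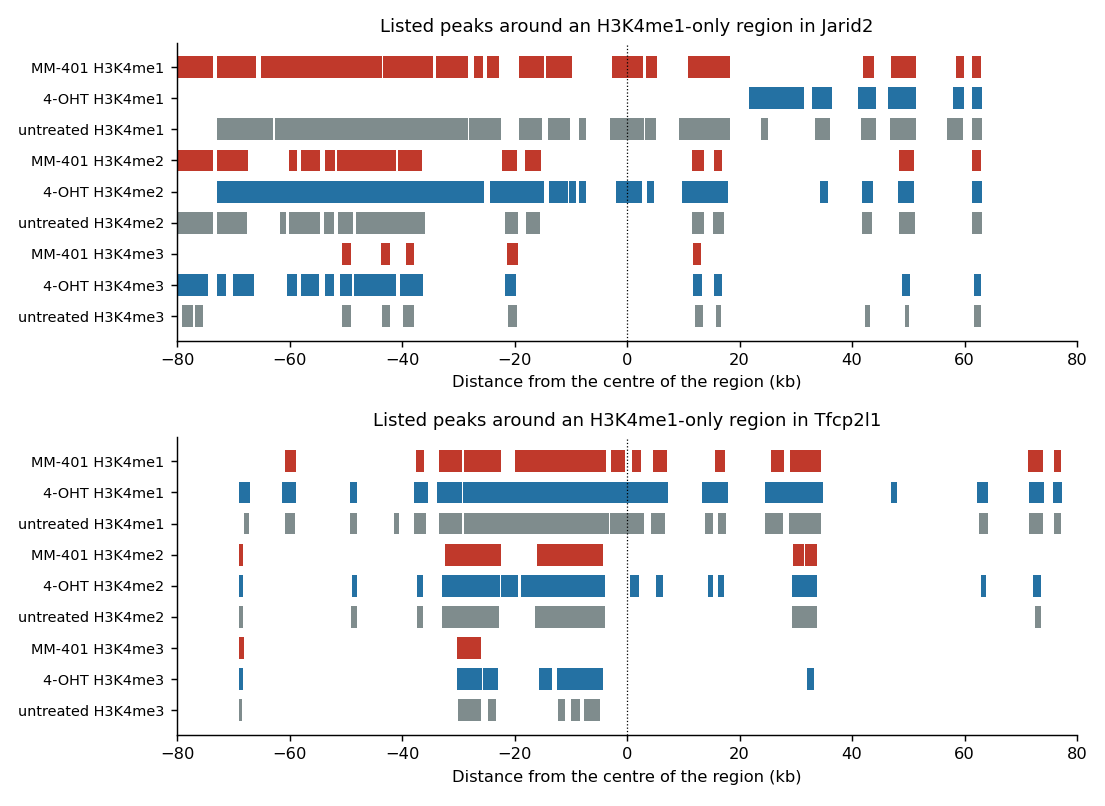
Listed peaks of each mark and condition (rows) within 80 kb of the centre of a member in Jarid2 (top) and in Tfcp2l1 (bottom), by distance from that centre in kb (x axis). Boxes are peaks; at Jarid2 the 4-OHT H3K4me1 row is empty at the member while a 4-OHT H3K4me2 peak of 356 tags lies there, and at Tfcp2l1 the member lies inside 1 wide 4-OHT H3K4me1 peak.

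New H3K4me3 was rare and weak. After 4-OHT the new peak with the most tags lay in Ncoa1, a nuclear receptor coactivator gene, with 4.62 tags per M, and the same member was the only one with a new H3K4me3 peak after MM-401, with 3.33 tags per M. Its H3K4me1 was not listed after MM-401 and stood at 41.1 tags per M in a 14771 bp peak after 4-OHT, against 7.84 in 4767 bp in untreated cells. Tet2, which encodes an enzyme that oxidises methylcytosine, held a member with 75 H3K4me3 and 432 H3K4me2 tags after 4-OHT and neither mark after MM-401. The 44 new 4-OHT H3K4me3 peaks had a median of 37.5 tags, against 98 over the whole list.

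Genes of 9 lists, drawn up with earlier results of these data known, were searched for members inside them or within 50 kb. Of 88 genes 55 (62.5%) had one, against 44.6% of all 21887 protein-coding genes. The 105 members found held no 4-OHT H3K4me3. Of them 28 (26.7%) had no H3K4me1 after MM-401 and 8 (7.62%) none after 4-OHT, where all members stood at 28.6% and 3.06%. H3K4me2 was acquired by 4 (3.81%) after MM-401 and 48 (45.7%) after 4-OHT, where all members stood at 7.87% and 53.5%.

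Pluripotency factors had 26 members, of which 5 (19.2%) lacked H3K4me1 after MM-401 and 1 (3.85%) after 4-OHT, beside 28.6% and 3.06% of all members. H3K4me2 was acquired by 1 (3.85%) after MM-401 and 9 (34.6%) after 4-OHT, beside 7.87% and 53.5% of all members. Near Sox2, the member 25.9 kb from the gene had 4.41 H3K4me1 tags per M after MM-401 and 6.07 after 4-OHT, against 4.18 in untreated cells, and acquired H3K4me2 after 4-OHT (133 tags). The member 46.9 kb from Tbx3, a factor of naive cells, had 1.94 H3K4me1 tags per M after MM-401 and 8.57 after 4-OHT, against 9.60 in untreated cells. It carried no other mark. Both other members near Tbx3 had no peak after MM-401.

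Genes of the formative and primed state had 14 members, of which 8 (57.1%) lacked H3K4me1 after MM-401 and 0 after 4-OHT, beside 28.6% and 3.06% of all members. H3K4me2 was acquired by 1 (7.14%) after MM-401 and 3 (21.4%) after 4-OHT, beside 7.87% and 53.5% of all members. Dnmt3a, a de novo DNA methyltransferase, held the strongest (chromosome 12, 3875342 to 3879683), with 12.6 H3K4me1 tags per M after MM-401 and 11.9 after 4-OHT, against 13.0 in untreated cells. It acquired H3K4me2 of 2.88 tags per M after MM-401 and 4.40 after 4-OHT. Members near Dnmt3b, Fgf5 and Otx2, genes of primed cells, had no peak after MM-401. After 4-OHT they held 2.57, 7.45 and 2.82 H3K4me1 tags per M in that order, against 2.77, 2.74 and 3.50 in untreated cells. The 4-OHT values count whole overlapping peaks, and their widths were not compared.

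The H3K4 methylation machinery had 19 members, of which 0 acquired H3K4me2 after MM-401 and 14 (73.7%) after 4-OHT, beside 7.87% and 53.5% of all members. H3K4me1 was lacking at 4 (21.1%) after MM-401 and 5 (26.3%) after 4-OHT, beside 28.6% and 3.06% of all members. The 5 were 2 in Kmt2c, an H3K4 monomethyltransferase, 2 near Kdm1a, an H3K4 demethylase, and 1 near Men1, a partner of Mll1, and each had a 4-OHT H3K4me2 peak. The 2 near Kdm1a were neighbours 48.4 and 43.8 kb from it, the nearer in the body of Luzp1, so the 5 are not separate loci. Of the 90 members with 4-OHT H3K4me2 and no 4-OHT H3K4me1, 87 lay in the long unlisted stretches described above. Whether H3K4me1 was absent there in the cells was not tested. In Kmt2a, the gene of Mll1, the member inside the gene had 3.29 H3K4me1 tags per M after MM-401 and 10.3 after 4-OHT, against 4.61 in untreated cells. It acquired 178 tags of H3K4me2 after 4-OHT. The treated values count whole overlapping peaks, and their widths were not compared with that of the member. Such values describe chromatin at the locus and are no measure of the deletion.

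Each lineage list was small, and all members stood at 53.5% with H3K4me2 after 4-OHT. Primitive endoderm genes had 9 members, of which 5 acquired H3K4me2 after 4-OHT, among them 4 at the laminin gene Lamb1. Mesoderm genes had 7 and trophectoderm genes 10, of which 4 and 2 acquired H3K4me2 after 4-OHT. For Mesp1, a mesoderm factor, the member 1.92 kb away had 3.51 H3K4me1 tags per M after MM-401 and 3.22 after 4-OHT, against 3.82 in untreated cells, with no other mark. Meis and Pbx cofactor genes had 8, of which 1 lacked H3K4me1 after MM-401 and 5 acquired H3K4me2 after 4-OHT, 3 of them in Meis1. Neuroectoderm genes had 3, and housekeeping genes had 9, of which 5 acquired H3K4me2 after 4-OHT.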

How the data were processed

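Chromatin immunoprecipitation and sequencing gave 10 peak lists, 1 per precipitated library, and 4 input libraries served the authors as controls. Per the file headers, peaks were called in each library alone with MACS 1.4.2 (p cutoff 1e-05, band width 300 bp, at most 1 tag per position). Per the submitters' processing notes the tools were Bowtie2, SAMtools 1.5 and MACS2 on mm10, so headers and notes differ on the caller. The deposited count is the number of tags in a peak, without scaling to depth. As deposited, the score is -10 times log10 of the MACS p-value. The deposited ratio is the fold enrichment at the summit over the local background. The percent column, as deposited, holds the false discovery rate of the caller. The 2 other deposited values are width and summit position.

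Overlaps were computed with Python 3.11.15, NumPy 2.4.6 and pandas 2.3.3, intervals with SciPy 1.17.1, and the interval code was tested on simulated data. Peaks count as overlapping from 1 bp. Tags were divided by the filtered tags in the file headers, in units of 1000000; a member under several treated peaks got the sum of their tags and widths. Fold enrichment was only described, the score was used only in alternatives, and the false discovery rate in no comparison. The GRCm38.p6 annotation gave 21887 protein-coding genes, with both ends and no strand, and annotated starts on chromosome 18 were not used here. The members, the gene lists and the comparisons were chosen with earlier results of these data known. Named regions are the 10 members with the most untreated tags, the 10 with the most untreated tags among those without H3K4me1 per treatment and under both, the 10 with the most treated tags of each acquired mark per treatment, and the members within 50 kb of list genes; not all are printed. Smyd3, Rere, Lpp, Rbfox2, Atxn2, the members over starts and the ranking of new peaks were chosen after values were seen. With 1 library per group no p-values were computed. Alternatives changed the overlap, the tag, width and score limits, the list lengths and the distance to other peaks.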

Additional observations from a re-analysis of the deposited data

How the results depend on the processing

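No paired analysis was possible because each group is 1 library. Each alternative changed 1 choice, and 32 of 63 values stayed inside the interval of the value reported, or within 1.5 times for the number of members. For the medians of the log2 H3K4me1 ratio the interval is the exact one of a median. Under every alternative run for both treatments, the 4-OHT share with H3K4me2 stayed above the MM-401 share, and the MM-401 share without H3K4me1 above the 4-OHT share.

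A minimum of 200 tags left 1141 members, of which 8.68% were without H3K4me1 and 14.6% with H3K4me2 after MM-401, and 77.9% with H3K4me2 and 1.14% with H3K4me3 after 4-OHT. The median log2 ratios were then 0.064 for MM-401 and -0.15 for 4-OHT. A minimum of 50 tags gave 29568 members, of which 54.5% were without H3K4me1 and 3.78% with H3K4me2 after MM-401, and 13.0% without H3K4me1, 31.8% with H3K4me2 and 0.335% with H3K4me3 after 4-OHT. Median log2 ratios were then 0.19 for MM-401 and -0.16 for 4-OHT. Treated peaks with a score of 100 or more left 56.3% without H3K4me1 and 1.37% with H3K4me2 after MM-401, and 7.66% without H3K4me1, 31.9% with H3K4me2 and 0.163% with H3K4me3 after 4-OHT.

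Lists cut to equal numbers changed the members for MM-401. They gave 27.5% of 8713 without H3K4me1 and 19.8% of 19154 with H3K4me2, where the added regions have an untreated H3K4me2 peak in the full list, so this is no acquisition by the members. For 4-OHT they gave 42.7% with H3K4me2 and 0.337% with H3K4me3. Overlap of at least 50% of the shorter peak gave 8.48% with H3K4me2 and 0.146% with H3K4me3 after MM-401. With no other untreated peak within 1000 bp the 4-OHT median log2 ratio was -0.17. The following were chosen after seeing the data, as were the alternatives for the log2 ratios. New peaks alone gave 52.4% with H3K4me2 after 4-OHT, peaks above the 5th percentile of untreated tags at equal depth 46.1%, and leaving out the members in long unlisted stretches 1.16% without H3K4me1 after 4-OHT, or 2.14% when only those with H3K4me2 were left out. The members left out of those stretches all lacked a 4-OHT H3K4me1 peak, so that share could only fall. No such exclusion was made for MM-401. Stricter or looser limits change which regions or peaks are counted, and beyond that the cause was not tested.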
